A study of Homo sapiens with 8 samples.

Results

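The transcriptome of BT-549 cells treated with the LIFR inhibitor EC359 alone was compared with that of vehicle-treated cells, across all genes counted. BT-549 is an established triple-negative breast cancer (TNBC) cell line. The comparison used 4 of the 8 RNA-seq libraries of the series, chosen by their treatment labels: 2 libraries of cells given EC359 at 100 nM and 2 of cells given the DMSO vehicle, all collected at 24 h. The other libraries came from cells given 10 µM of the histone deacetylase inhibitor vorinostat, with or without 100 nM EC359, and served here to share the estimate of spread and to look at the EC359 response in other samples. All cells grew in RPMI medium with fetal bovine serum, so serum factors were present in every group. Nothing in the labels says whether the 2 libraries of a group came from separate cultures. The p-values therefore measure the spread between libraries of a group, pooled over all 8 libraries, which may be technical.

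Leukemia inhibitory factor (LIF) is a cytokine of the interleukin-6 family. It binds LIFR, which then pairs with the shared subunit gp130, the product of IL6ST, and both chains carry JAK kinases. Activated JAKs phosphorylate STAT3, and the same receptor also feeds the RAS-ERK and PI3K-AKT pathways. STAT3 induces its own inhibitor SOCS3, while ERK activity induces DUSP phosphatases and SPRY proteins that dampen it, so the mRNAs of these feedback genes are widely used as readouts of each pathway. TNBC cells can make both LIF and its receptor.

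The libraries held 20931921 and 21020292 counts on genes for vehicle and 24759041 and 19098230 for EC359, and 13694 of 23228 listed genes had enough counts to be tested. Levels are given as CPM, the read count scaled to the TMM-adjusted library size, and are not corrected for gene length. Between the libraries of a group, log2 values differed with an SD over genes of 0.35 for vehicle and 0.56 for EC359. It was 0.31 for vorinostat and 0.45 for EC359 plus vorinostat, which share the estimate of spread. In a principal component analysis of the 4 vehicle and EC359 libraries the first component, with 64.3% of the variance, separated EC359 from vehicle. The second, with 25.9%, placed the EC359 libraries at 23.7 and -35.9. Their difference moved across genes with GC content (Spearman's rho -0.227) and transcript length (rho 0.233). That between the vehicle libraries did so too, with rho -0.14 and 0.174. The part of these differences in the results was tested only with the offsets given with the counts of calls. VIM, a mesenchymal intermediate filament gene, was at 2166 and 2056 CPM in the vehicle libraries, while CDH1, EPCAM, ESR1 and PGR were each under 1 CPM in all 4 libraries. ERBB2, the HER2 gene, lay between 76.1 and 102 CPM. Libraries hold bulk RNA, so fewer cells of a kind and less RNA per cell cannot be told apart.

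Among the genes called higher in EC359 were genes of ERK feedback, CXC chemokines, matrix proteases, genes of the integrated stress response and the CDK inhibitor CDKN1A. Among those called lower were ID genes, fibrillar collagens, sterol and fatty acid synthesis genes and the CDK inhibitors CDKN2C and CDKN1B. A gene was called when its adjusted p was under 0.01 and its absolute log2 fold change over 1 (quasi-likelihood F-test of edgeR, Benjamini-Hochberg adjustment over all tested genes). By this rule 502 of 13694 genes were called (3.67%), 266 higher (1.94%) and 236 lower (1.72%). The median fold change was 2.95-fold up among the higher genes and 2.84-fold down among the lower ones, and 75 and 54 genes moved over 4-fold. The adjusted p threshold without the fold threshold passed 522 genes higher (3.81%) and 549 lower (4.01%), and the median log2 fold change over all tested genes was -0.02. These shares and this median are the reference for the counts and medians of the gene lists below. Counts of list members that passed the adjusted p alone include the called members. Said of a single gene, the words mean that the fold threshold was not passed.

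Among the 266 higher genes the median log2 difference from the vehicle mean was 1.64 in EC359 replicate 1 and 1.49 in replicate 2, and among the 236 lower genes it was -1.52 and -1.46. The number of calls was 924 without EC359 replicate 2, 528 without EC359 replicate 1, 304 without vehicle replicate 1 and 298 without vehicle replicate 2. Fitted on these 4 libraries alone, 146 genes were called higher and 87 lower. Offsets for GC content and transcript length, added after the values were seen, gave 279 higher and 208 lower.

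**Figure D1:**
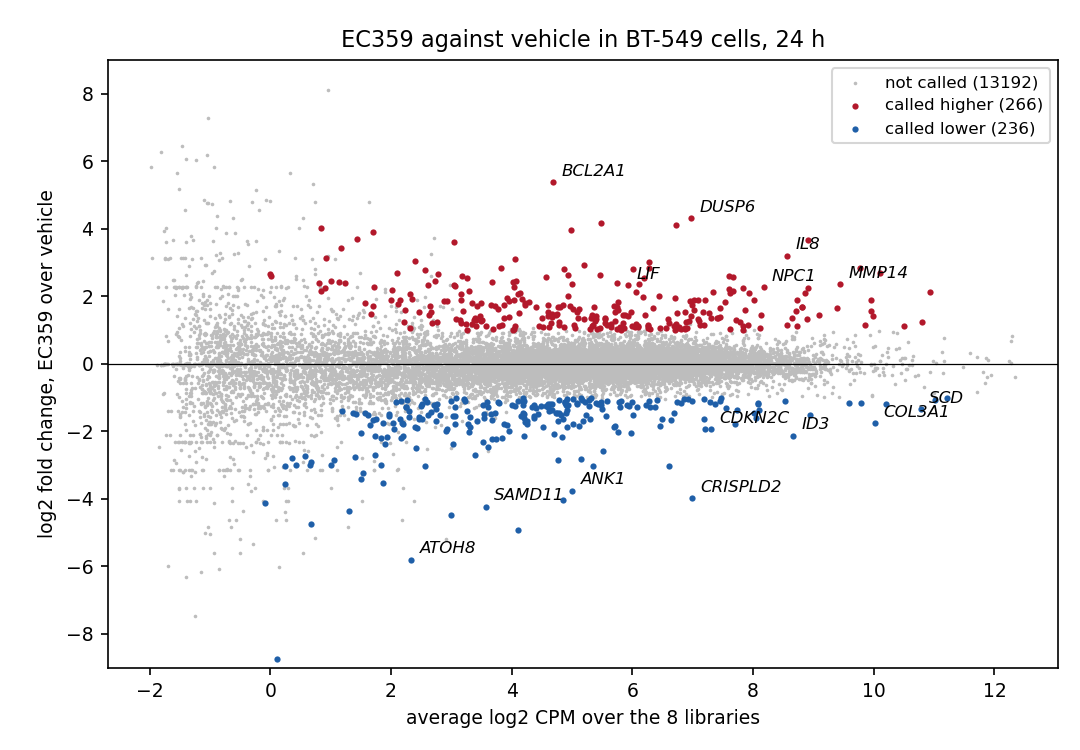
Each point is 1 of the 13694 tested genes, with its average log2 CPM over the 8 libraries on the x axis and its log2 fold change in EC359 over vehicle on the y axis. Red points mark the 266 genes called higher, blue points the 236 called lower, and grey points the genes not called; BCL2A1 and DUSP6 stand high and ATOH8, SAMD11 and CRISPLD2 low.

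EC359 was made to block LIFR, and the mRNAs of the receptor and of its ligand moved in opposite directions. LIFR was at 23.4 and 28 CPM in vehicle and 16.7 and 14.1 CPM in EC359 (log2 fold change -0.74 ± 0.13 SE, adjusted p = 0.00464), so its fall passed the adjusted p but not the fold threshold. LIF rose from 25.3 and 21.2 CPM to 119 and 114 CPM (log2 fold change 2.32 ± 0.12 SE, adjusted p = 5.19e-06). OSM had no count in any of the 4 libraries and CNTF was at 0.101 CPM or less, so a change in these other LIFR ligands was not detectable at this depth. The LIF gene lies at chr22:30636442-30642748 and LIFR at chr5:38474770-38608456 in GENCODE on GRCh37, the build the study aligned to under its name hg19.

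Of 15 tested ligands and receptors of the LIF and IL6 family, 4 were called higher: LIF, IL6, IL6R and CLCF1. IL6, the founding cytokine of the family, went from 5.33 and 5.42 to 14.3 and 12.4 CPM (log2 fold change 1.31 ± 0.13 SE, adjusted p = 2.18e-04). The ligand-binding receptor chain IL6R went from 3.59 and 2.66 to 8.78 and 9.44 CPM (log2 fold change 1.54 ± 0.21 SE, adjusted p = 0.00123). CLCF1, a ligand of the CNTF receptor, went from 12.2 and 11.4 to 26.6 and 21.1 CPM with a log2 fold change of 1.01, just above the fold threshold. OSMR, the partner of gp130 in oncostatin M signaling, passed the adjusted p alone at 0.81, and IL6ST, at 0.48 (adjusted p = 0.0188), did not. The list had 4 called members in the DESeq2 test as well, 2 without vehicle replicate 2 and 1 in the fit on these 4 libraries.

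Downstream of the receptor act the JAK kinases, the STAT factors they phosphorylate and the SOCS inhibitors. None of 23 tested members was called by edgeR or by DESeq2, with 2 higher and 6 lower at an unadjusted p under 0.05, and the median log2 fold change was -0.11. STAT3 was at 242 and 247 CPM in vehicle and 156 and 171 CPM in EC359 (log2 fold change -0.58 ± 0.09 SE, adjusted p = 0.00284). SOCS3, the STAT3-induced feedback inhibitor, was at 38.5 and 41 CPM in vehicle and 19.96 and 26 CPM in EC359 (log2 fold change -0.79 ± 0.13 SE, adjusted p = 0.00318). Both falls passed the adjusted p but stayed under the fold threshold.

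Genes commonly listed as induced by STAT3 went both ways. Of 28 tested, 5 were called higher and 3 lower, with a median log2 fold change of 0.53. BCL3, a nuclear cofactor of NF-kB, fell from 47.7 and 47 to 22.7 and 19.6 CPM (log2 fold change -1.16 ± 0.15 SE, adjusted p = 9.99e-04), and CEBPD, a transcription factor of the acute-phase response, from 62.2 and 71.7 to 35 and 29.3 CPM (log2 fold change -1.06 ± 0.18 SE, adjusted p = 0.00379). IRF1, an interferon response factor, fell by 1.04 on the log2 scale. The higher members were BCL6, CEBPB, CCND1, VEGFA and PTGS2. Members on both sides, IRF1 lower and CEBPB, CCND1, VEGFA and PTGS2 higher, are also in other lists below. VEGFA, which codes for the angiogenic growth factor, rose from 62.7 and 54.3 to 248 and 205 CPM (log2 fold change 1.95 ± 0.12 SE, adjusted p = 1.44e-05), and CEBPB from 102 and 129 to 286 and 404 CPM (log2 fold change 1.58 ± 0.18 SE, adjusted p = 4.73e-04). CCND1, the cyclin of G1 entry, had a log2 fold change of 1.03. No lower call of this list was left in the fit on these 4 libraries, with the offsets for GC content and length or without vehicle replicate 2, 1 without vehicle replicate 1, and 2 without either EC359 library.

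Of the 50 gene lists examined, the ERK feedback genes had the largest share of members called higher. Of 22 tested genes 12 were called higher and 1 lower, against 1.94% and 1.72% of all tested genes, and the median log2 fold change was 1.12, 1.08 in EC359 replicate 1 and 1.26 in replicate 2. DUSP6, a phosphatase that acts on ERK in the cytoplasm, rose from 7.74 and 6.77 to 164 and 125 CPM (log2 fold change 4.32 ± 0.16 SE, adjusted p = 1.23e-06). SPRY4, an inhibitor of receptor tyrosine kinase signaling, rose from 6.33 and 4.76 to 96.5 and 75.9 CPM (log2 fold change 3.96 ± 0.19 SE, adjusted p = 3.82e-06). For both genes the lower EC359 library was far above the higher vehicle library.

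The nuclear ERK phosphatases DUSP4 and DUSP5 rose with them. DUSP4 went from 27.3 and 30.8 to 198 and 217 CPM (log2 fold change 2.84 ± 0.11 SE, adjusted p = 1.26e-06) and DUSP5 from 3.02 and 3.18 to 17.3 and 26.1 CPM (log2 fold change 2.80 ± 0.22 SE, adjusted p = 5.27e-05). The PEA3 transcription factors, which act at the end of the pathway, were all called higher. ETV1 rose from 2.45 and 2.94 to 20.8 and 17.8 CPM (log2 fold change 2.83 ± 0.17 SE, adjusted p = 1.18e-05), ETV4 from 8.54 and 8.36 to 49.2 and 51.5 CPM (log2 fold change 2.57 ± 0.15 SE, adjusted p = 1.18e-05) and ETV5 from 15.3 and 14.7 to 104 and 108 CPM (log2 fold change 2.82 ± 0.10 SE, adjusted p = 1.23e-06). The other called members were SPRY1 at 1.12, SPRY2 at 1.12, PHLDA1 at 1.69, IER3 at 2.25 and CCND1, given above, all as log2 fold changes. EPHA4, an ephrin receptor, was the lower member, from 89.3 and 80.3 to 24.6 and 21.5 CPM (log2 fold change -1.88 ± 0.11 SE, adjusted p = 1.18e-05). The number called higher was 11 or 12 when any 1 of the 4 libraries was left out.

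Genes of the immediate early response, most of them transcription factors, are switched on within minutes of a growth signal. Of 26 tested, 6 were called higher, with a median log2 fold change of 0.49. They were the factors FOSL1, MAFF, KLF2, NR4A2 and ATF3, and IER3, which is not a transcription factor and is in the ERK feedback list too. FOSL1, a FOS-family subunit of AP-1 that is sustained by ERK activity, rose from 108 and 87.2 to 551 and 304 CPM (log2 fold change 2.14 ± 0.26 SE, adjusted p = 6.91e-04), with the EC359 libraries well apart from each other. MAFF rose from 19.2 and 21.6 to 81.9 and 79.7 CPM (log2 fold change 1.99 ± 0.11 SE, adjusted p = 6.09e-06), and KLF2 from 4.67 and 4.67 to 21 and 18.6 CPM (log2 fold change 2.08 ± 0.15 SE, adjusted p = 3.86e-05). NR4A2, an orphan nuclear receptor, rose from 0.755 and 0.187 to 3.01 and 2.79 CPM (log2 fold change 2.61 ± 0.41 SE, adjusted p = 0.00296) and rests on few counts in vehicle. The classic early genes EGR1 and FOS lay lower in EC359: EGR1 was at 42.1 and 32.9 CPM in vehicle and 22.8 and 16.1 CPM in EC359 (log2 fold change -0.94 ± 0.18 SE, adjusted p = 0.00865), and FOS had a log2 fold change of -0.55 (adjusted p = 0.0263). JUN passed the adjusted p alone at 0.93. The list had 10 higher calls without EC359 replicate 2 and 3 in the fit on these 4 libraries.

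**Figure D2:**
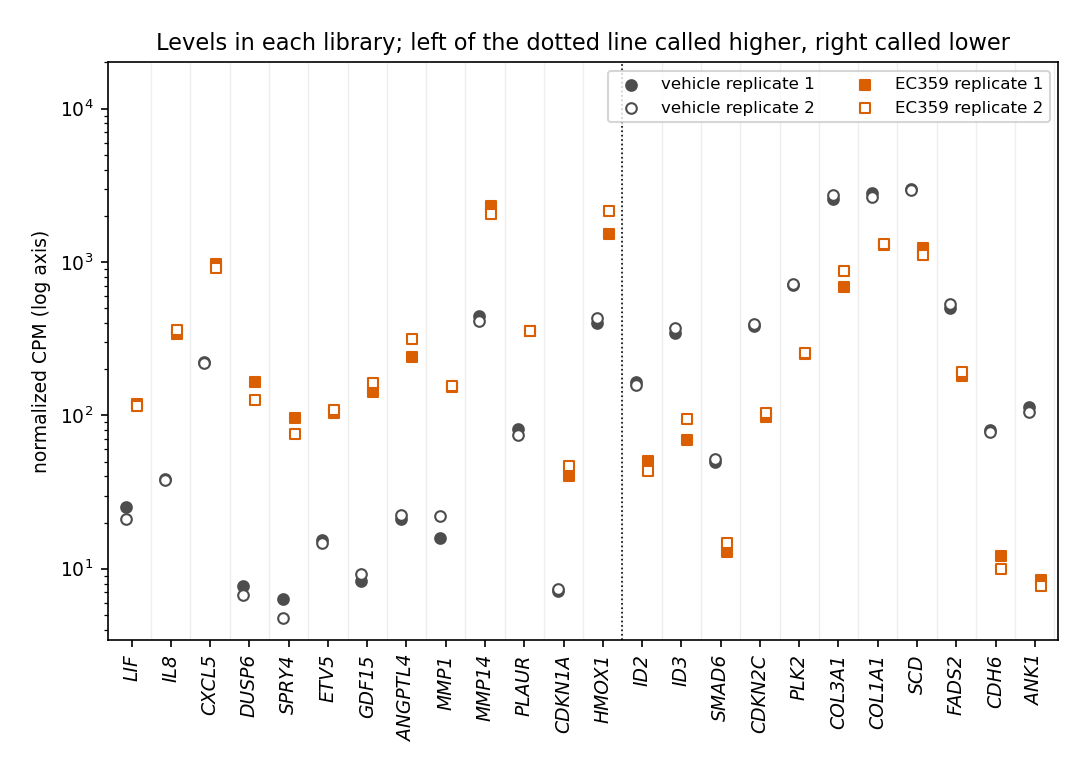
Normalized CPM of 24 genes in each vehicle library (circles) and each EC359 library (squares), on a log axis, with filled symbols for replicate 1 and open symbols for replicate 2. In the 13 genes left of the dotted line, called higher, both squares lie above both circles, and in the 11 genes to its right, called lower, both lie below.

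NF-kB and AP-1 are known to induce many chemokines and cytokines. Of 23 tested genes of this list 9 were called higher, among them CXC chemokines, IL6, IL1B and PTGS2, and 2 lower, CSF1 and IRF1, with a median log2 fold change of 0.84. IL8, the neutrophil chemokine now named CXCL8, rose from 38.2 and 37.8 to 339 and 362 CPM (log2 fold change 3.20 ± 0.09 SE, adjusted p = 1.04e-06). CXCL5 rose from 223 and 220.5 to 965 and 919 CPM (log2 fold change 2.09 ± 0.10 SE, adjusted p = 3.57e-06). CXCL1, CXCL2 and CXCL3 had log2 fold changes of 1.54, 1.04 and 2.36, and the CXCL2 call was lost in 10 of 16 other settings. Since these genes are near-identical copies, reads that aligned to several of them would have been set aside in counting as not unique. All of these chemokines sit in a cluster on chromosome 4, with IL8 at chr4:74606236-74609433 and CXCL2 at chr4:74962757-74964913 (GRCh37).

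IL1B, an inflammatory cytokine, had 0 and 5 counts in vehicle and 60 and 30 in EC359, a call (adjusted p = 0.00792) that rests on few counts. The IL1B call was lost in 8 of 16 other settings. PTGS2, the inducible cyclooxygenase, went from 0.236 and 0.234 to 2.19 and 3.7 CPM (log2 fold change 3.60 ± 0.39 SE, adjusted p = 3.17e-04). TRAF1, a signaling adaptor, had a log2 fold change of 1.71. The direct NF-kB feedback genes were not called: NFKBIA, the gene of the inhibitor IkB alpha, was at 58.3 and 53.4 CPM in vehicle and 61.1 and 42.5 CPM in EC359, groups that overlapped, and TNFAIP3 had a log2 fold change of 0.46 (adjusted p = 0.11). CSF1, the macrophage growth factor, fell from 168 and 158 to 70.8 and 66.4 CPM (log2 fold change -1.25 ± 0.12 SE, adjusted p = 1.56e-04). The fit on these 4 libraries gave 5 higher calls in the list, and leaving out vehicle replicate 1 gave 6.

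Matrix metalloproteinases degrade collagens and other matrix proteins, and some activate each other. Of 13 tested matrix metalloproteinases and TIMP inhibitors 4 were called higher and 1 lower. MMP1, an interstitial collagenase, rose from 15.8 and 22 to 154 and 155 CPM (log2 fold change 3.03 ± 0.15 SE, adjusted p = 3.95e-06). MMP3, a stromelysin that activates other proteases, rose from 1.32 and 2.06 to 30.9 and 29.6 CPM (log2 fold change 4.16 ± 0.18 SE, adjusted p = 2.08e-06). MMP14, the membrane-bound activator of MMP2, rose from 443 and 413 to 2318 and 2057 CPM (log2 fold change 2.35 ± 0.10 SE, adjusted p = 2.08e-06). The second stromelysin MMP10 had 3 counts in the vehicle libraries together and 51 in the EC359 libraries, a ratio of 16.5 with an exact 95% counting interval of 5.33 to 82.5, which covers counting error only. The MMP10 call was lost in 5 of 16 other settings. MMP11, the lower member, went from 2.27 and 2.71 to 0.495 and 1.01 CPM (log2 fold change -1.75 ± 0.35 SE, adjusted p = 0.00945), on few counts, and its call was lost in 11 of 16 other settings, with adjusted p up to 0.077. MMP10, MMP1 and MMP3 are neighbours on chromosome 11, from 102641233 to 102714340 (GRCh37).

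In the plasminogen system the activator and its receptor were called higher. PLAU, the urokinase gene, rose from 57.1 and 60.7 to 228 and 249 CPM (log2 fold change 2.02 ± 0.11 SE, adjusted p = 6.01e-06). PLAUR, which anchors urokinase at the cell surface, rose from 81 and 74 to 356 and 356 CPM (log2 fold change 2.20 ± 0.09 SE, adjusted p = 1.81e-06). These were 2 higher calls among 7 tested genes, with a median log2 fold change of 0.89. CSTB, an inhibitor of lysosomal cysteine proteases and in no list, had the largest rise in mean CPM of the called genes, from 350.0 and 338 to 2943 and 1939.8 CPM (log2 fold change 2.83 ± 0.17 SE, adjusted p = 1.26e-05).

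The promoters of called genes were searched for the AP-1 element, to which FOS and JUN proteins bind. The letters TGANTCA, which read the same on both strands, were searched in the 250 bases before the RefSeq gene start (GRCh38.p14), a choice made after the values were seen. They occurred in 26 of 206 promoters of genes called higher (12.6%), 9 of 174 of genes called lower (5.17%) and 471 of 10632 of all tested genes (4.43%). The letters occurred in 1 of 20 promoters of the NF-kB list, a share near that of all tested genes, in 1 of 6 of the metalloproteinases and TIMPs, in 2 of 4 of the plasminogen genes and in none of the 16 of the ERK feedback list. A match is a description of the sequence and does not show binding. The sequences that follow, 61 bases each and read 5′ to 3′ on the strand of the gene, show the element in capitals for 6 called genes of different function: a chemokine, a protease, the urokinase receptor, a laminin chain, a metallothionein and an NRF2-responsive gene.

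The RefSeq promoter stretches with their AP-1 element were these.
IL8 (CXCL8): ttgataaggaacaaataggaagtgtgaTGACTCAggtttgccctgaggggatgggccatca
MMP10: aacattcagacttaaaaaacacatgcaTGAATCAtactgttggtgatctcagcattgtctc
PLAUR: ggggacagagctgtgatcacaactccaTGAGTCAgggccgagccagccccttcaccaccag
LAMB3: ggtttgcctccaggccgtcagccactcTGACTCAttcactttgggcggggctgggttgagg
MT2A: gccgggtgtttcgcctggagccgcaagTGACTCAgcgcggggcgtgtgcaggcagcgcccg
OSGIN1: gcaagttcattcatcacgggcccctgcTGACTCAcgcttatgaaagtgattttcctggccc

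On GRCh38.p14 the stretches lie for IL8 at chr4:73740405-73740465 on the plus strand, MMP10 at chr11:102780662-102780722 on the minus strand, PLAUR at chr19:43670322-43670382 on the minus strand, LAMB3 at chr1:209651408-209651468 on the minus strand, MT2A at chr16:56608453-56608513 on the plus strand and OSGIN1 at chr16:83953116-83953176 on the plus strand. The element began 137, 67, 186, 67, 104 and 97 bases before the start, in the same order. The log2 fold changes of IL8, PLAUR, LAMB3, MT2A and OSGIN1 were 3.20, 2.20, 1.75, 1.88 and 1.86.

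Among called genes with an average log2 CPM of at least 3 over the 8 libraries, the largest rise was that of a survival gene. BCL2A1, an anti-apoptotic BCL2 relative, rose from 0.378 and 0.28 to 13 and 15 CPM (log2 fold change 5.38 ± 0.22 SE, adjusted p = 1.81e-06). It met the average level only through the libraries with EC359 plus vorinostat, at 90 and 84.4 CPM. GDF15, a stress-induced cytokine of the TGF-beta superfamily, rose from 8.26 and 9.3 to 142 and 162 CPM (log2 fold change 4.11 ± 0.14 SE, adjusted p = 1.23e-06). Of 11 tested anti-apoptotic genes 10 had a positive log2 fold change and 5 passed the adjusted p alone, among them MCL1 at 0.61 and BCL2L1 at 0.55. Among 26 tested pro-apoptotic genes 13 had a positive log2 fold change, 3 passed the adjusted p alone, all higher, DESeq2 called 2 higher and edgeR 1, TNFRSF10B, the TRAIL receptor DR5, from 76.5 and 78.6 to 148 and 196 CPM (log2 fold change 1.15 ± 0.14 SE, adjusted p = 7.82e-04). BAX and BAK1, the pore-forming effectors, had log2 fold changes of -0.05 and -0.09 with overlapping groups.

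The integrated stress response, in which the factor ATF4 turns on amino acid and recovery genes, had 8 of 57 tested members called higher, against 1.94% of all genes. They were SESN2, PPP1R15A, ATF3, KLHL24, VLDLR and the genes CEBPB, GDF15 and VEGFA given above, and in the list 47 had a positive log2 fold change, with a median of 0.33. SESN2, a sensor of leucine and oxidative stress, rose from 24.1 and 25.7 to 65 and 79.1 CPM (log2 fold change 1.53 ± 0.11 SE, adjusted p = 3.92e-05). PPP1R15A, which codes for the phosphatase subunit GADD34, rose from 101 and 84.8 to 341 and 216 CPM (log2 fold change 1.58 ± 0.19 SE, adjusted p = 6.69e-04), and ATF3 had a log2 fold change of 1.21. ATF4 mRNA itself was at 236 and 241 CPM in vehicle and 261 and 296 CPM in EC359 (log2 fold change 0.22 ± 0.09 SE, adjusted p = 0.13), and the target CHAC1 had overlapping groups at 0.11. DDIT3, the CHOP gene, was at 0.48 (adjusted p = 0.0126) and the asparagine synthetase gene ASNS passed the adjusted p alone at 0.90. The C/EBP-ATF core TGATGCAA, searched on both strands in the same 250 bases, was found in 5 of 43 promoters of the list (11.6%) and in 0.433% of those of all tested genes. None of the 7 promoters of its called members held it. The fit on these 4 libraries called 5 members of the list higher.

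The arms of the unfolded protein response raise chaperones of the endoplasmic reticulum. Of 35 tested ER chaperone and unfolded protein response genes 1 was called higher, EDEM3 at 1.12, a share near the 1.94% of all tested genes. HSPA5, the chaperone BiP, was at 1678 and 1699.8 CPM in vehicle and 1244 and 1355 CPM in EC359 (log2 fold change -0.38 ± 0.08 SE, adjusted p = 0.0099). Among 30 tested p53 targets 4 were called higher and 1 lower, while 14 had a positive and 16 a negative log2 fold change, with a median of -0.04. The higher calls were 2 in the fit on these 4 libraries and without either vehicle library, and 6 without EC359 replicate 1. CDKN1A, the p21 cell cycle inhibitor, rose from 7.13 and 7.43 to 40.4 and 46.6 CPM (log2 fold change 2.58 ± 0.11 SE, adjusted p = 2.04e-06), AEN had a log2 fold change of 1.13, and GDF15 and TNFRSF10B are on this list too. PLK2, a kinase induced by p53 and by serum, fell from 711 and 719 to 249.7 and 254 CPM (log2 fold change -1.50 ± 0.08 SE, adjusted p = 6.53e-06), while MDM2, the feedback ligase of p53, was at 0.46 (adjusted p = 0.0361).

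Of 39 tested glycolysis and hypoxia genes 6 were called higher, VEGFA among them, with a median log2 fold change of 0.38. ANGPTL4, an inhibitor of lipoprotein lipase, rose from 21.1 and 22.5 to 240.3 and 315 CPM (log2 fold change 3.67 ± 0.14 SE, adjusted p = 1.23e-06). HK2, the hexokinase of glycolytic tumors, rose from 65.1 and 63 to 236 and 235 CPM (log2 fold change 1.88 ± 0.09 SE, adjusted p = 3.13e-06), and HK1, ENO2 and EPAS1 had log2 fold changes of 1.01, 1.27 and 1.11. Of 27 NRF2 and antioxidant genes 4 were called higher, HMOX1, GCLM, OSGIN1 and AKR1C1. HMOX1, which degrades heme, rose from 402 and 429.6 to 1512 and 2143 CPM (log2 fold change 2.14 ± 0.15 SE, adjusted p = 2.43e-05), GCLM had 1.10 and OSGIN1 1.86, while NQO1, a widely used NRF2 readout, was at -0.15 with overlapping groups. The fit on these 4 libraries called 2 members of this list higher.

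The metallothioneins MT2A and MT1X, which bind zinc and copper, were called higher. MT2A was at 341 and 274 CPM in vehicle and 1447 and 816 CPM in EC359 (log2 fold change 1.88 ± 0.24 SE, adjusted p = 8.97e-04), and MT1X at 24.4 and 18.3 CPM and 103 and 47.5 CPM (log2 fold change 1.82 ± 0.34 SE, adjusted p = 0.00704). The MT1X call was lost in 8 of 16 other settings. In both genes EC359 replicate 1 was above replicate 2 by more than the vehicle libraries differed. Reads that aligned to several of these near-identical short genes would have been set aside in counting as not unique.

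On the falling side were ID genes and feedback genes of BMP signaling. ID proteins bind and block basic helix-loop-helix factors, and BMP signaling through SMADs induces them. Of 22 tested genes 6 were called lower, ID2, ID3, ID4, SMAD6, BAMBI and ATOH8, against 1.72% of all genes. ID3 fell from 342 and 373 to 68.9 and 94.6 CPM (log2 fold change -2.13 ± 0.14 SE, adjusted p = 1.75e-05) and ID2 from 166 and 158 to 50.3 and 43.4 CPM (log2 fold change -1.79 ± 0.10 SE, adjusted p = 7.59e-06). ID1 was at 153 and 163 CPM in vehicle and 103 and 135 CPM in EC359, and its log2 fold change of -0.40 did not pass (adjusted p = 0.0522). SMAD6, an inhibitor of BMP signaling, fell from 49.5 and 52.2 to 12.9 and 14.7 CPM (log2 fold change -1.88 ± 0.13 SE, adjusted p = 2.07e-05). ATOH8, a helix-loop-helix factor, fell from 15.8 and 17.8 to 0.371 and 0.203 CPM (log2 fold change -5.81 ± 0.36 SE, adjusted p = 1.40e-05). The decoy receptor BAMBI and ID4 had log2 fold changes of -1.54 and -1.48. These calls numbered 6 or 7 with each of the 4 libraries left out and 6 in the fit on the 4 libraries.

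TGF-beta family genes were called in both directions, 4 higher and 2 lower of 28 tested, the lower ones being COL1A1 and COL1A2. The higher calls were 2 in the fit on these 4 libraries and without either vehicle library, and DESeq2 called 1 lower. INHBA, the activin A subunit, rose from 151 and 144 to 377 and 270.5 CPM (log2 fold change 1.13 ± 0.14 SE, adjusted p = 6.99e-04), and its inhibitor follistatin (FST) from 10.6 and 9.48 to 33.6 and 32.4 CPM (log2 fold change 1.72 ± 0.15 SE, adjusted p = 8.45e-05). The latent TGF-beta binding proteins LTBP1 and LTBP2 had log2 fold changes of 1.12 and 1.88. CTGF, shared by the TGF-beta and YAP programs, was at 328 and 307 CPM in vehicle and 219.7 and 202 CPM in EC359 (log2 fold change -0.59 ± 0.08 SE, adjusted p = 0.00139), and CYR61, another YAP target, had a log2 fold change of -0.15 (adjusted p = 0.28).

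Cells make cholesterol from acetyl-CoA by the mevalonate pathway, which sterols switch off through SREBP factors. Of 32 tested genes of cholesterol synthesis, uptake and sterol sensing 5 were called lower and 1 higher, 14 passed the adjusted p alone on the lower side, and the median log2 fold change was -0.65. MVD, which makes isopentenyl diphosphate, fell from 82.9 and 96.5 to 24.5 and 38.6 CPM (log2 fold change -1.51 ± 0.19 SE, adjusted p = 7.12e-04), and mevalonate kinase (MVK) from 28.7 and 30.1 to 10.2 and 12.4 CPM (log2 fold change -1.38 ± 0.13 SE, adjusted p = 1.72e-04). LSS and TM7SF2, of the later sterol steps, had log2 fold changes of -1.06 and -1.54. The TM7SF2 call was lost in 10 of 16 other settings. The higher member was NPC1, which exports cholesterol from lysosomes, from 82.8 and 80.7 to 375 and 412 CPM (log2 fold change 2.27 ± 0.09 SE, adjusted p = 1.81e-06). The fit on these 4 libraries called no member of this list lower, while leaving out EC359 replicate 2 gave 8, and 3 were called without EC359 replicate 1, without vehicle replicate 2 or with the offsets for GC content and length.

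In fatty acid synthesis 3 of 19 tested genes were called lower and 8 passed the adjusted p alone. SCD, the stearoyl-CoA desaturase, fell from 3006 and 2942 to 1227 and 1115 CPM (log2 fold change -1.34 ± 0.08 SE, adjusted p = 8.29e-06). FADS2, a polyunsaturated fatty acid desaturase, fell from 504 and 529 to 181 and 191 CPM (log2 fold change -1.47 ± 0.09 SE, adjusted p = 9.83e-06), and ACSS2 had a log2 fold change of -1.35. SREBF1, whose product drives this program, and FASN, the synthase, passed the adjusted p alone at -0.98 and -0.94. With any 1 of the 4 libraries left out, 3 or 4 members were called lower.

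Of the 5 called genes with the largest falls in mean CPM, 3 were fibrillar collagens, and the others were SCD and CAV1. COL3A1 fell from 2586 and 2724 to 688 and 875 CPM (log2 fold change -1.76 ± 0.14 SE, adjusted p = 5.27e-05), COL1A1 from 2803 and 2639.6 to 1286 and 1311 CPM (log2 fold change -1.07 ± 0.07 SE, adjusted p = 2.35e-05) and COL1A2 from 3699 and 3880.1 to 1692 and 2069 CPM (log2 fold change -1.01 ± 0.11 SE, adjusted p = 2.87e-04). These were the 3 called collagens of 23 tested, 10 passed the adjusted p alone on the lower side, and the median was -0.45. CAV1, the caveolin of cell surface pits, fell from 2457 and 2479 to 1047 and 1115 CPM (log2 fold change -1.19 ± 0.07 SE, adjusted p = 1.40e-05). DESeq2 called 2 collagens lower, and the COL1A2 call was lost in 9 of 16 other settings.

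Integrins are the receptors and laminins the ligands of cell adhesion to the basement membrane. Of 25 tested integrins and laminins 3 were called higher, against 1.94% of all tested genes, and 22 had a positive log2 fold change, with a median of 0.48. ITGA5, the fibronectin receptor chain, rose from 65.1 and 62 to 132 and 127 CPM (log2 fold change 1.03 ± 0.09 SE, adjusted p = 9.55e-05). LAMB3, a laminin chain, rose from 12.6 and 12.5 to 37.3 and 47.2 CPM (log2 fold change 1.75 ± 0.14 SE, adjusted p = 6.57e-05), and ITGB3 had a log2 fold change of 2.29 at low levels. The contractile genes TPM1, MYL9 and CNN2 fell, with log2 fold changes of -1.21, -1.10 and -1.10, 3 calls among 32 tested actin and SRF genes, and ACTB passed the adjusted p alone at -0.58. In the fit on these 4 libraries, and with the offsets for GC content and length, 1 member of that list was called lower.

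Mesenchymal transcription factors went both ways. ZEB1 rose from 86.2 and 80.8 to 208 and 142 CPM (log2 fold change 1.07 ± 0.16 SE, adjusted p = 0.00215), while TWIST1 fell from 68.7 and 66.6 to 36.7 and 30.4 CPM (log2 fold change -1.01 ± 0.13 SE, adjusted p = 9.15e-04), SNAI1 had a log2 fold change of -1.70 and FOXC1, a factor of basal-like breast cancer, fell from 162 and 153 to 78.4 and 50.5 CPM (log2 fold change -1.29 ± 0.21 SE, adjusted p = 0.00375). SNAI2 was at -0.13 with overlapping groups, and the cadherin CDH2 at 0.56 (adjusted p = 0.0242). VIM passed the adjusted p alone at 0.66. Of 13 tested members of the list 1 was called higher and 3 lower. The TWIST1 call was lost in 12 of 16 other settings, with a log2 fold change between -1.15 and -0.87. No member was called lower in the fit on these 4 libraries or without either vehicle library, and 1 was without EC359 replicate 2.

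Inhibitors of the cell cycle kinases were called in both directions. CDKN1A rose, as given above, while CDKN2C, the p18 inhibitor of CDK4 and CDK6, fell from 382 and 392 to 97.6 and 104 CPM (log2 fold change -1.94 ± 0.09 SE, adjusted p = 3.04e-06), and CDKN1B, the p27 inhibitor, from 156 and 149.7 to 61.6 and 64.7 CPM (log2 fold change -1.28 ± 0.09 SE, adjusted p = 2.76e-05). CDKN2B, the p15 inhibitor, was called lower close to the fold threshold at -1.01, and its call was lost in 11 of 16 other settings. None of 53 tested S phase genes was called by edgeR or DESeq2, with 7 higher and 10 lower at an unadjusted p under 0.05 and a median of -0.02. Of 65 G2 and mitosis genes 59 had a negative log2 fold change, with a median of -0.31 against -0.02 over all tested genes. On the lower side 10 passed the adjusted p alone, against 4.01% of all tested genes, and 1 was called, a share near the 1.72% of all. It was KIF20A, a mitotic kinesin, from 279.7 and 251 to 125 and 116 CPM (log2 fold change -1.14 ± 0.09 SE, adjusted p = 6.82e-05). CCNB1 had a log2 fold change of -0.62 (adjusted p = 0.0242) and CDK1 one of -0.37 (adjusted p = 0.0795).

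MYC, a driver of ribosome production, was at 207 and 184 CPM in vehicle and 420.0 and 338 CPM in EC359 (log2 fold change 0.95 ± 0.12 SE, adjusted p = 7.77e-04), just under the fold threshold. Of 53 tested ribosome biogenesis genes 49 had a positive log2 fold change, with a median of 0.33, 8 passed the adjusted p alone and 1 was called higher, a share near the 1.94% of all tested genes. It was RRP1, from 73.5 and 76.7 to 197 and 231 CPM (log2 fold change 1.51 ± 0.11 SE, adjusted p = 2.80e-05). The ribosomal proteins themselves were not called in edgeR or DESeq2, with 5 of 76 higher and 0 lower at an unadjusted p under 0.05. Their median difference from vehicle was -0.44 in EC359 replicate 1 and 0.18 in replicate 2, opposite in sign. The respiratory chain subunits, none of 75 called by either tool and 1 higher and 7 lower at an unadjusted p under 0.05, had medians of -0.42 and -0.04 in these libraries. For both groups the difference between the EC359 libraries exceeded the difference of their mean from vehicle.

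**Figure D3:**
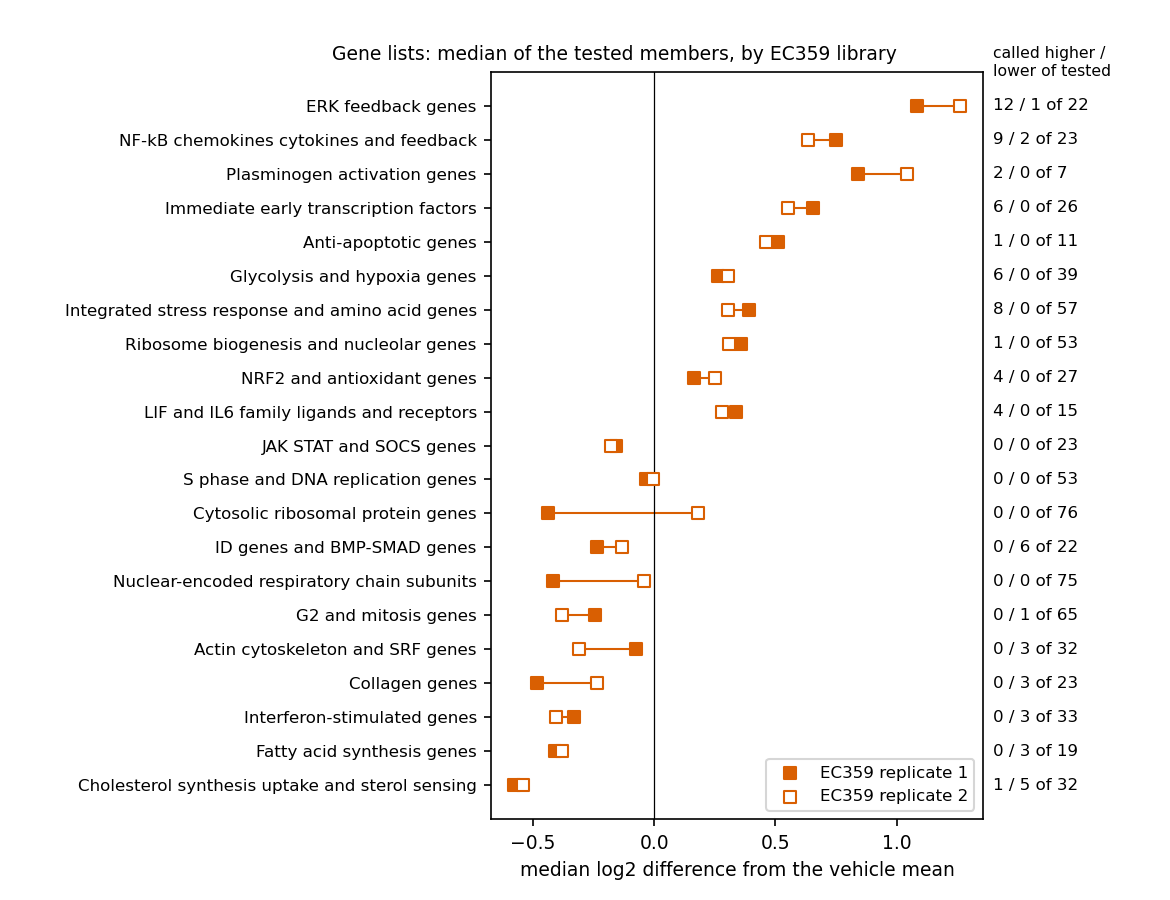
Median log2 difference from the vehicle mean over the tested members of 21 gene lists, with filled squares for EC359 replicate 1, open squares for replicate 2 and a line joining them, and counts of called members at the right. The ERK feedback list lies furthest to the right at 1.08 and 1.26, and the cytosolic ribosomal protein genes have squares on opposite sides of 0.

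Of 33 tested interferon-stimulated genes 26 had a negative log2 fold change, with a median of -0.49 against -0.02 over all tested genes. Called lower were 3 of the 33, against 1.72% of all tested genes. The 3 called genes were IFIT1, from 13.4 and 11.7 to 4.08 and 4.97 CPM (log2 fold change -1.47 ± 0.18 SE, adjusted p = 6.87e-04), and the neighbours PARP9 and DTX3L at -1.44 and -1.13, which overlap on opposite strands. The lower calls were 5 without EC359 replicate 2 and 2 without vehicle replicate 1. ISG15 and MX1 did not pass, at -0.77 and 0.26 (adjusted p = 0.0944 and 0.7). PSMB9, a subunit of the immunoproteasome, was the called gene of 14 antigen presentation genes at -1.63, while B2M had 0.10 with overlapping groups.

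In the PI3K, AKT and mTOR list 4 of 31 tested genes were called higher, IRS2, RICTOR, DEPTOR and SESN2, and 1 lower. The DEPTOR call was lost in 9 of 16 other settings, and the fit on these 4 libraries called 2 members higher. PIK3R3, a regulatory subunit of PI3K, fell from 162 and 166 to 63.5 and 63 CPM (log2 fold change -1.38 ± 0.09 SE, adjusted p = 1.38e-05). IRS2, an adaptor of insulin signaling, rose from 15 and 17 to 47 and 44.9 CPM (log2 fold change 1.52 ± 0.11 SE, adjusted p = 2.80e-05), and RICTOR, of mTOR complex 2, had 1.07. AKT1 and MTOR had log2 fold changes of -0.21 (adjusted p = 0.13) and 0.04 (adjusted p = 0.81).

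Among called genes with an average log2 CPM of at least 3, the largest falls lay outside these lists. SAMD11 fell from 17 and 19 to 0.99 and 0.913 CPM (log2 fold change -4.23 ± 0.18 SE, adjusted p = 2.08e-06), CRISPLD2, a secreted protein gene, from 45.3 and 51.3 to 3.46 and 2.59 CPM (log2 fold change -3.98 ± 0.15 SE, adjusted p = 1.23e-06), and ANK1, a membrane skeleton ankyrin, from 113 and 106 to 8.49 and 7.66 CPM (log2 fold change -3.76 ± 0.17 SE, adjusted p = 2.51e-06). In each of them the libraries of a group lay close together. CDH6, a cadherin, fell from 80.8 and 78.4 to 12 and 9.99 CPM (log2 fold change -2.85 ± 0.13 SE, adjusted p = 3.13e-06), ADAMTS15, a matrix protease, from 87.8 and 86.4 to 10.5 and 14.2 CPM (log2 fold change -2.83 ± 0.16 SE, adjusted p = 9.14e-06), and CXCR7, the atypical chemokine receptor now named ACKR3, from 23.9 and 25.6 to 5.28 and 5.22 CPM (log2 fold change -2.23 ± 0.14 SE, adjusted p = 1.26e-05).

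PTGES, which makes prostaglandin E2 from the product of PTGS2, was lower in EC359. It had 66 counts in the vehicle libraries and 2 in the EC359 libraries, a ratio of 34.1 with an exact 95% counting interval of 9.06 to 287. The other genes of the largest falls were ANKRD58, PRUNE2, FHDC1, SIM1, RAMP1, SNED1, PRICKLE1 and CPA4, with log2 fold changes between -4.05 and -2.32. Like BCL2A1 and PTGS2 among the higher genes, PTGES and CPA4 met the average level only through the libraries with vorinostat. In vorinostat alone PTGES was at 38.8 and 36.9 CPM and CPA4 at 139 and 137 CPM. RAMP1 had EC359 libraries at 2.76 and 8.01 CPM, well apart, and CPA4 was at 1.84 and 1.59 CPM in vehicle and 0.371 and 0 CPM in EC359.

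Among the largest rises outside the lists, FZD8, a Wnt receptor, went from 8.69 and 9.02 to 61.1 and 73.5 CPM (log2 fold change 2.92 ± 0.14 SE, adjusted p = 3.57e-06), and PRNP, the prion protein gene, from 570.5 and 569.6 to 1829.7 and 1515 CPM (log2 fold change 1.55 ± 0.10 SE, adjusted p = 1.40e-05). CD163, a scavenger receptor best known from macrophages, rose from 4.67 and 5.47 to 54.4 and 33.2 CPM (log2 fold change 3.11 ± 0.24 SE, adjusted p = 5.27e-05), and CD68, a lysosomal protein also used as a macrophage marker, from 47.3 and 39.8 to 202 and 120.2 CPM (log2 fold change 1.89 ± 0.22 SE, adjusted p = 5.38e-04). The leukocyte-defining PTPRC was at 0.708 and 0.654 CPM in vehicle and 0.577 and 0.203 CPM in EC359, CD14 at 0.0934 CPM or less, and CD3E had no count. The summed level of the 12 leukocyte markers was 49.9 and 43 CPM in vehicle and 205 and 122 CPM in EC359, nearly all of it CD68. The 8 endothelial markers summed to 1.17 CPM or less in every library, and the 17 epithelial markers to 6.51 and 7.61 CPM in vehicle and 12.9 and 12.3 CPM in EC359.

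The same dose of EC359 was also given on top of vorinostat, in libraries that the comparison with vehicle did not use as a contrast. They did enter its estimate of spread, so the tests with and without vorinostat are not independent. Of the 266 genes called higher, 159 (59.8%) were also higher in EC359 plus vorinostat than in vorinostat at an adjusted p under 0.01, against 8.45% of all tested genes. Of the 236 genes called lower, 66 (28%) were also lower there, against 5.26%. The median log2 fold change of the higher genes was 1.56 without and 0.98 with vorinostat, and that of the lower genes -1.51 and -0.42. There were 13 of the 502 that passed in the opposite direction. In all, 225 of the 502 passed in the same direction. With a library left out the genes were called anew, and 491 of the 924 then called passed without EC359 replicate 2, 312 of 528 without EC359 replicate 1, 152 of 304 without vehicle replicate 1 and 148 of 298 without vehicle replicate 2.

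The EC359 response differed with and without vorinostat, by the interaction term at an adjusted p under 0.01, in 121 of the 502 genes (24.1%) and in 2.1% of all tested genes. The interaction uses the EC359 and vehicle libraries that chose the genes, so these shares are a description. In 35 of the 52 higher genes with an interaction the response was smaller or reversed on vorinostat and in 17 it was larger, and in all 69 lower genes it was smaller or reversed. Of all 236 lower genes, 86 were over 2-fold below vehicle in vorinostat alone already and 50 over 2-fold above it. Among the genes called anew, an interaction passed in 363 of the 924 called without EC359 replicate 2, 267 of 528 without EC359 replicate 1, 45 of 304 without vehicle replicate 1 and 41 of 298 without vehicle replicate 2.

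Of the 13 called ERK feedback genes 12 passed in the same direction on vorinostat, as did 9 of the 11 called NF-kB list members, 7 of the 8 of the integrated stress response, 4 of the 6 of the ID and BMP list and 0 of the 3 integrins and laminins. DUSP6 was at 14.1 and 15.8 CPM in vorinostat and 322 and 352 CPM with EC359 added (log2 fold change 4.49, adjusted p = 3.29e-07). EPHA4 was the exception, rising from 25 and 27.1 to 72.2 and 74.2 CPM there (log2 fold change 1.49, adjusted p = 3.56e-05). IL8 and LIF rose by more on vorinostat, IL8 by 4.80 and LIF by 4.24 on the log2 scale. PLAU, called higher with EC359 alone, was at 25.9 and 29.1 CPM in vorinostat and 22.8 and 25 CPM in the combination, and CRISPLD2, called lower with EC359 alone, at 248 and 251 CPM in vorinostat and 202 and 218 CPM in the combination. CXCR7 turned from lower to higher, from 7.2 and 7.18 to 16 and 16.3 CPM (log2 fold change 1.17, adjusted p = 4.34e-04).

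**Figure D4:**
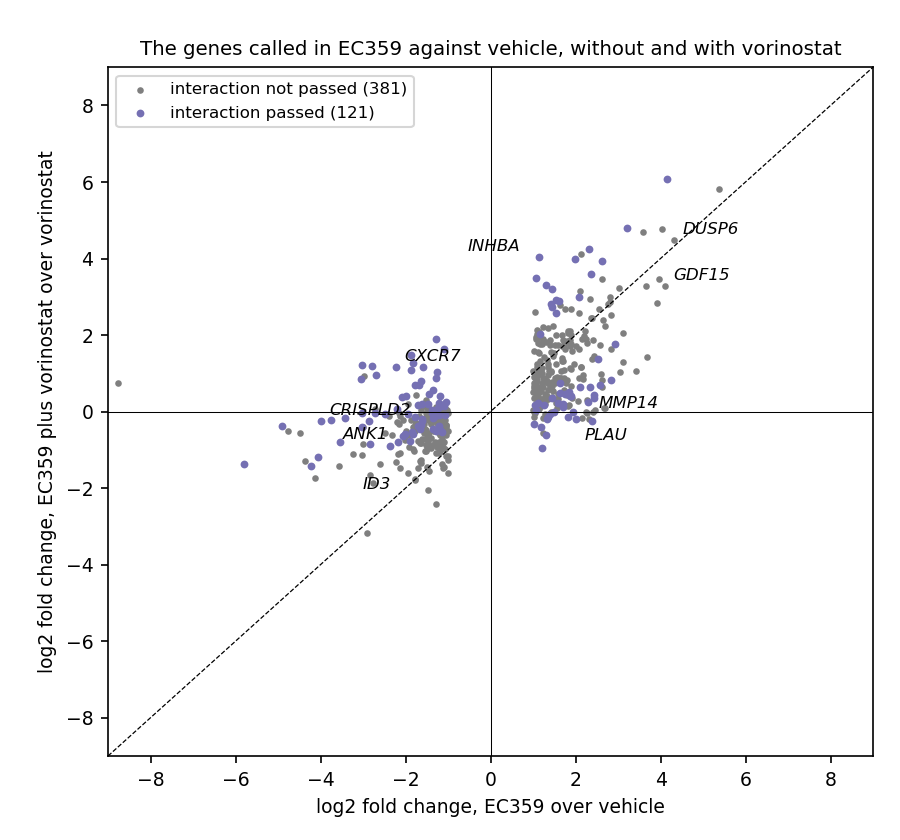
The 502 genes called in EC359 against vehicle, with their log2 fold change in EC359 over vehicle on the x axis and in EC359 plus vorinostat over vorinostat on the y axis; the dashed line marks equal changes. Purple points mark the 121 genes whose interaction passed an adjusted p of 0.01, and on the left, among the genes called lower, these points lie above the dashed line.

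Of the 180 genes named here, 75 have an exon that overlaps another gene's exon on the opposite strand in GENCODE, among them LIF, LIFR, DUSP6, MMP1, MMP3 and KIF20A. Whether HTSeq counted by strand is not given in the sources used here, so reads of such pairs cannot be assigned with certainty.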

How the data were processed

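RNA-seq was performed on 8 libraries of BT-549 cells (vehicle, 100 nM EC359, 10 µM vorinostat and both drugs, 2 each, 24 h). The authors deposited raw read counts per gene symbol, 1 file for each library, and these whole-number counts were used as deposited. Per the submitters' processing notes, reads were demultiplexed with bcl2fastq, aligned to hg19 with TopHat2 2.0.8b and counted with HTSeq. The strand setting is not given in the sources used here. The 5 HTSeq summary rows were left out. They put 11 to 14.2% of reads in no feature and 0.649 to 0.85% as ambiguous, shares of those on genes, in no feature or ambiguous. The row for alignments that were not unique held 9294551 to 11832359 per library. Counts on genes ranged from 19069450 to 24759041.

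Genes passing edgeR's expression filter (13694 of 23228) were TMM-scaled and fitted by group over all 8 libraries with edgeR 4.0.16 (glmQLFit and glmQLFTest, R 4.3.3, limma 3.58.1), so that all groups share 1 estimate of the spread. Contrasts were EC359 minus vehicle, the same on vorinostat, and their difference (the interaction). P-values were two-sided and Benjamini-Hochberg adjusted over all tested genes. Each SE was computed back from the test, as the absolute log2 fold change over the square root of the F statistic. DESeq2 1.42.0, other scalings, filters, thresholds, libraries left out and a replicate block were alternatives. The procedure was also run on simulated counts with 1 spread shared by all genes and groups, unlike in these data. Summaries and figures used Python 3.11.15 with pandas 2.3.3, scipy 1.17.1 and matplotlib 3.10.9. Gene symbols were matched to GENCODE on GRCh37 for 21312 of 23228 symbols, and promoter sequences came from RefSeq on GRCh38.p14 for 15658 of them. Named genes were the 15 largest changes in each direction among called genes that averaged a log2 CPM of 3 or more and did not overlap between groups, the 5 largest CPM changes in each direction, called or key members of the gene lists, and genes of the LIFR pathway. Low counts were compared as a ratio with an exact binomial interval. The gene lists and members were chosen with earlier results of these data known.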

Additional observations from a re-analysis of the deposited data

Results flagged for a closer look

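The genes listed here had an EC359 response that differed between cells with and without vorinostat, by the interaction term of edgeR's quasi-likelihood fit at an adjusted p under 0.01 (Benjamini-Hochberg, over all tested genes). They are 58 of the 176 tested genes named above, and 2.1% of all tested genes passed. Each value is the log2 fold change of EC359 on vorinostat minus that of EC359 against vehicle. Genes named above were partly chosen for a change in EC359 against vehicle, which enters the interaction, and these values are given as a description. Those of PTGES and CPA4 rest on few counts in the EC359 libraries.

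Among genes with a positive log2 fold change in EC359 against vehicle, the response was larger on vorinostat, with differences of MMP3 1.93, IL8 1.59, PRNP 1.37, LIF 1.92, IL6ST 0.98, IL6 2.00, DDIT3 1.66, SESN2 1.05, MAFF 2.00, INHBA 2.91, CXCL3 1.22 and CXCL5 0.91. In others of these genes it was smaller or reversed, with differences of FZD8 -1.17, CSTB -2.01, MMP14 -1.71, BCL2L1 -0.84, VLDLR -1.08, CDKN1A -1.88, HK2 -1.47, FST -1.60, PLAU -2.22, ITGA5 -1.35, ITGB3 -2.04 and LAMB3 -1.29.

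Among genes with a negative log2 fold change in EC359 against vehicle, the response was smaller or reversed on vorinostat, with differences of PTGES 4.55, SAMD11 2.81, ANKRD58 2.87, CRISPLD2 3.73, ANK1 3.53, CPA4 3.89, PRUNE2 2.61, CDH6 2.61, ADAMTS15 1.97, FHDC1 2.67, SNED1 1.49 and CXCR7 3.40. The same direction held for SCD 0.90, CAV1 0.72, LIFR 1.29, SOCS3 1.43, FOS 1.79, IRF1 1.30, HSPA5 1.46, CDKN1B 0.78, MVK 1.35, ACSS2 1.18, EPHA4 3.37 and EGR1 3.02. The same direction held for SMAD6 1.12, ATOH8 4.43, CTGF 1.72, TPM1 0.82, CSF1 2.27, SNAI1 1.88, FOXC1 3.18 and PIK3R3 1.42. In others of these genes it was more negative, with differences of SREBF1 -1.29 and AKT1 -0.75.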

How the results depend on the processing

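Of the 502 calls, 496 were shared with RLE scaling, 490 with total counts, 495 with DESeq2, 497 with no filter on low counts, 492 with the stricter filter and 449 with the offsets for GC content and length, and no shared call changed sign. In the fit on the 4 libraries of the contrast 146 genes were called higher and 87 lower. Without the fold threshold 522 and 549 passed. Leaving out 1 EC359 or vehicle library at a time gave 168 to 413 higher and 130 to 511 lower calls, the most without EC359 replicate 2 and the fewest higher without vehicle replicate 2. The group reduced to 1 library is then assumed to vary like the others. Counted within the genes called in each setting, those that passed in the same direction on vorinostat (225 of 502) ranged from 116 of the 421 called without vorinostat replicate 1 to 491 of the 924 called without EC359 replicate 2. Those with an interaction (121 of 502) were 218 of 549 with DESeq2, 186 of 566 with no filter and 269 at an adjusted p of 0.05, and ranged from 39 of 421 without vorinostat replicate 1 to 363 of 924 without EC359 replicate 2. The cause of these shifts was not tested. The offsets, and leaving out the vorinostat and combination libraries, were chosen after seeing the data. Of 142 named genes called, 82 were called in every setting.

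The labels do not say whether a replicate number marks a shared culture or day. Same-numbered libraries of vehicle and EC359 deviated from their group means with a correlation of 0.231, against -0.173 to 0.0746 for the other pairs of groups. With the replicate block, 471 genes were called, 255 higher and 216 lower, 467 of them shared with the calls above, and 209 and 97 genes passed in the same direction on vorinostat and by interaction. With 2 libraries a group, genes under a few CPM rest on few counts, and changes in them were often not detectable at this depth.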

Other observations

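Of the 50 gene lists, 23 had at least 3 called members and 12 had none. The histone genes had no call in edgeR or DESeq2, with 1 of 40 higher and 9 lower at an unadjusted p under 0.05, a median log2 fold change of -0.53 and medians of -0.48 and -0.25 in the EC359 libraries. Their median was -0.30 with the offsets for GC content and length. The lysosome and autophagy genes had no call in edgeR and 1 higher in DESeq2, with 10 of 42 higher and 3 lower at an unadjusted p under 0.05 and a median of 0.00. The cytosolic heat shock genes had no call in either tool, with 3 of 20 higher and 2 lower at an unadjusted p under 0.05 and a median of 0.17.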
